A study of Mus musculus with 6 samples.

Results

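The genes described here are the 4 Id genes (Id1, Id2, Id3 and Id4) and 6 genes of bone morphogenetic protein (BMP) signalling (Bmp4, Bmpr1a, Bmpr2, Smad1, Smad5 and Smad7), 10 of the 54685 genes in the annotation used. They were chosen by name and from earlier results of the same libraries, in which the Id1 level had differed between the genotypes. The genotype differences of the 10 genes are therefore given as a description, with no p-value for any of them. Poly-A RNA was sequenced from lumbar spinal cord, its ventral side only, in 3 Gde2KO samples and 3 wild-type (WT) samples, from mice 5 weeks old on the C57BL/6 background. Gde2KO mice lack GDE2, the product of Gdpd5, a membrane enzyme that releases proteins from glycosylphosphatidylinositol anchors. The labels give no sex, name no deleted exons and do not say whether the knockout acts in all cells. They name 3 samples per genotype without stating that each came from a separate animal, so the spread given measures only the variation between these samples.

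BMP ligands such as BMP4 bind a complex of type I receptors (among them BMPR1A) and type II receptors (among them BMPR2), which phosphorylates SMAD1 and SMAD5. These enter the nucleus with SMAD4 and raise transcription of target genes, of which the Id genes are the best known, while SMAD7 blocks the receptor complex. Id proteins have a helix-loop-helix but no basic DNA-binding region, so they capture basic helix-loop-helix (bHLH) proteins and keep them off DNA. In the oligodendrocyte lineage, BMP signalling favours astrocytes over oligodendrocytes, and Id2 and Id4 restrain differentiation.

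The Id genes are shown first by sequence, because their proteins share the helix-loop-helix and reads from near-identical stretches could be credited to the wrong gene. The 4 stretches below, each of 120 coding bases in exon 1, lie within the part that encodes it. They were read from GENCODE vM21 transcripts on GRCm38 (mm10) and are written 5′ to 3′ on the coding strand, with capitals for the 69 bases identical in all 4 genes. The stretch of Id1 lies on the plus strand at chr2:152736518-152736637, that of Id2 on the minus strand at chr12:25095783-25095902, that of Id3 on the plus strand at chr4:136144002-136144121 and that of Id4 on the plus strand at chr13:48261693-48261812.
Id1: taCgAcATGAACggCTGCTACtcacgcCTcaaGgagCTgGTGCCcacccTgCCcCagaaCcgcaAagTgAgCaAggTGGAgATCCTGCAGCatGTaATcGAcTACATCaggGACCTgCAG
Id2: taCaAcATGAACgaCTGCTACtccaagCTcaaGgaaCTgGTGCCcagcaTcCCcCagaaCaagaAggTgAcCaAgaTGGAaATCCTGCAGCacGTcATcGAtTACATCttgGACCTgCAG
Id3: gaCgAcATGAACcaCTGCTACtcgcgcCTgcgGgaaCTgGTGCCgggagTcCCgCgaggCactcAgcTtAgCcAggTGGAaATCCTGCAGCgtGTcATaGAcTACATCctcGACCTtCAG
Id4: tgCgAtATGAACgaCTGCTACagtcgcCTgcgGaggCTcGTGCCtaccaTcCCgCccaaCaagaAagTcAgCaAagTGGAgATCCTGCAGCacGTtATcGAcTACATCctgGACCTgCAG
Id1 and Id2 were the most alike over these 120 bases, with 81.7% identity, and the other pairs had 70.8% to 77.5%. The longest exact run shared by any pair of the 4 whole transcripts was 19 bases, between Id2 and Id3. A search for longer matches among annotated transcripts found none of another gene at 95% identity or more for Id1, Id2 or Id3. That search did not pick up short runs such as the 19 bases above, and it did not cover unannotated copies.

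The level of a gene is its FPKM (fragments scaled to transcript length and library size) averaged over its exonic bases and scaled between libraries, so that levels can be compared between genes. Each library held 31899 to 33791 assembled transcripts, and relative depth, with 1 as the average, was 0.945 to 1.14 in Gde2KO libraries and 0.910 to 1.03 in WT libraries. Gde2KO replicate 3 stood apart, with a robust SD of log2 differences of 0.257 to 0.291 to each other library, against 0.146 to 0.194 for pairs without it. Gdpd5 itself measured 1.24, 1.20 and 0.946 FPKM in Gde2KO libraries, against 5.38, 6.54 and 5.95 FPKM in WT libraries, a fold of 0.202 (limma adjusted p = 0.00526). All 10 neuronal and all 14 astrocyte markers examined were above the filter on low levels. In whole tissue, fewer cells of a type and less RNA per cell cannot be told apart.

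Id1 (chr2:152736251-152737410, plus strand), an early target of BMP signalling, had levels of 14.6, 15.3 and 16.2 FPKM in Gde2KO libraries, against 11.2, 10.8 and 9.84 FPKM in WT libraries. Every Gde2KO library lay above every WT library. The mean level was 15.4 ± 0.792 FPKM in Gde2KO and 10.6 ± 0.705 FPKM in WT (SD, n = 3 each), a log2 difference of 0.53 with a 95% interval of 0.34 to 0.72. Under 14 other ways of processing, which include leaving out each library in turn, the log2 difference lay between 0.48 and 0.59. Since no Gde2KO library lay below a WT library, leaving one out could not turn the sign. Leaving out libraries therefore shows only how far the size moved.

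**Figure D1:**
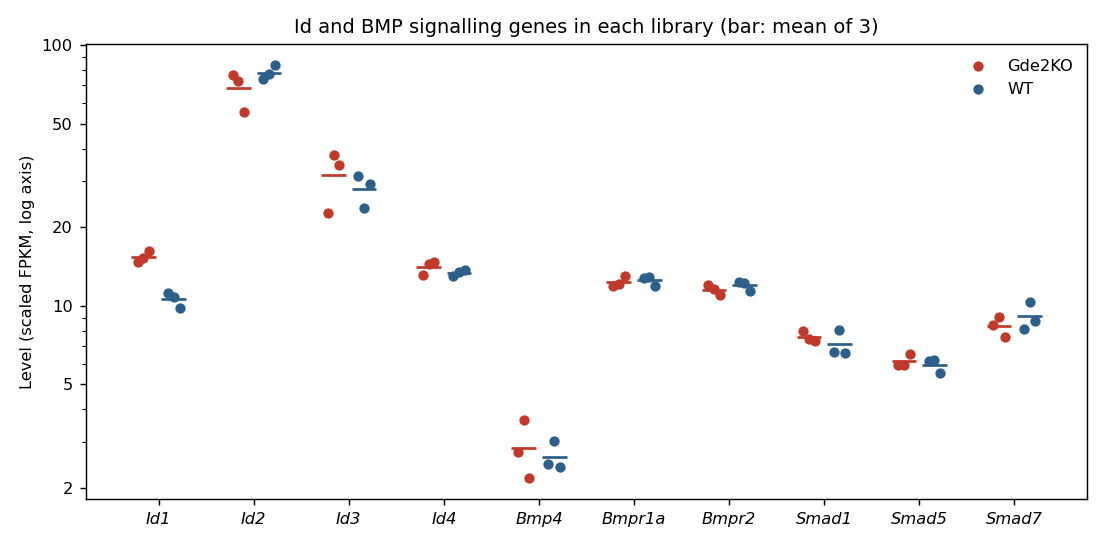
Level of each of the 10 genes in each library (scaled FPKM, log axis), with Gde2KO in red left of WT in blue, a point per library and a bar at the mean of 3. The groups do not overlap for Id1, at 14.6 to 16.2 FPKM in Gde2KO and 9.84 to 11.2 FPKM in WT, and they overlap for the other 9 genes.

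Each library held a single assembled Id1 transcript, with the exon chain of ENSMUST00000038368.8. Its deposited, unscaled FPKM was 14.5, 15.1 and 17.1 in Gde2KO libraries, against 11.6, 11.04 and 9.91 in WT libraries. The authors' confidence bounds did not overlap either, as the lowest lower bound in Gde2KO was 13.2 FPKM and the highest upper bound in WT was 12.8 FPKM. Those bounds cover the estimate within a library, not the variation between libraries. In Gde2KO replicate 3 the first exon was assembled with 621 bases, starting upstream of the annotated gene, against 475 to 485 bases in the other libraries. A gene-wide sum of fragments, which does not divide by length, kept the groups apart at 12.9, 13.4 and 16.8 in Gde2KO and 10.4, 9.72 and 8.72 in WT.

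**Figure D2:**
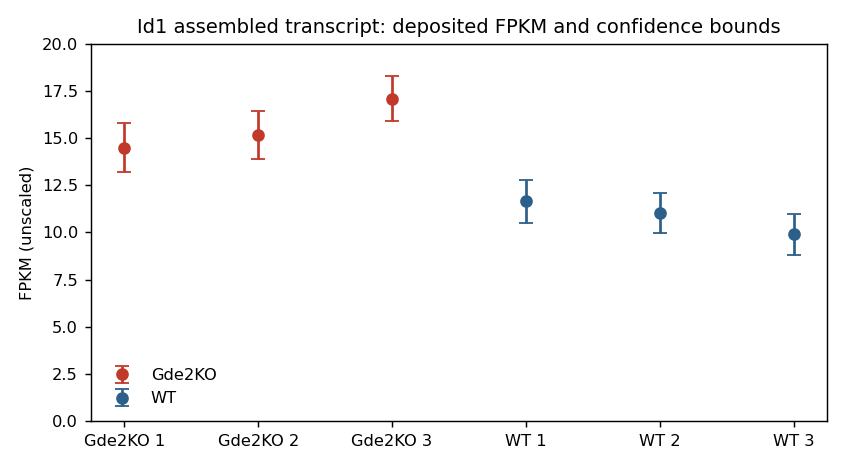
Deposited FPKM of the assembled Id1 transcript in each library, with Gde2KO in red left of WT in blue and bars for the authors' confidence bounds. The lowest bound among Gde2KO libraries, 13.2 FPKM, lies above the highest among WT libraries, 12.8 FPKM.

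Id2 (chr12:25093799-25097140, minus strand), which restrains oligodendrocyte differentiation, had the highest level of the 10 genes. It measured 76.6, 72.7 and 55.2 FPKM in Gde2KO libraries, against 73.8, 77.3 and 84.1 FPKM in WT libraries. The groups overlapped through Gde2KO replicate 1, and Gde2KO replicate 3 was the lowest. The mean level was 68.2 ± 11.4 FPKM in Gde2KO and 78.4 ± 5.22 FPKM in WT (SD, n = 3 each), a log2 difference of -0.21 (95% interval -0.56 to 0.14). Without scaling between libraries the groups were just apart, at 75.8, 72.2 and 55.3 FPKM in Gde2KO and 76.6, 78.7 and 84.0 FPKM in WT. The unscaled FPKM of the assembled transcript overlapped, at 79.9 in Gde2KO replicate 1 against 76.6 in WT replicate 1. The gene-wide sum of fragments overlapped too, at 90.0 against 81.2 in the same libraries. The log2 difference was negative under all 14 alternatives, at -0.30 to -0.07.

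Id3 (chr4:136143497-136145755, plus strand) measured 22.8, 37.8 and 34.8 FPKM in Gde2KO libraries, against 31.5, 23.7 and 29.2 FPKM in WT libraries. The lowest and the highest values were both in Gde2KO, so the groups overlapped fully. The log2 difference was 0.15 (95% interval -0.40 to 0.70), the widest interval of the 10. It was 0.37 without Gde2KO replicate 1 and 0.0095 without Gde2KO replicate 2. Assembly of this gene varied, because the annotated 3-exon chain was found in every library except Gde2KO replicate 1, where the only model had 4 exons and ended in an exon of 1 base.

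Id4 (chr13:48261228-48266026, plus strand), known in the brain for its role in neural precursors and for restraining oligodendrocyte differentiation, measured 13.1, 14.5 and 14.8 FPKM in Gde2KO libraries, against 13.02, 13.4 and 13.7 FPKM in WT libraries. The groups overlapped, and the log2 difference was 0.07 (95% interval -0.09 to 0.24), with 0.04 to 0.13 under the alternatives. A stretch of 110 bases of Id4 matched Gm49291, annotated on the opposite strand at the same place. The sources used here do not say whether the libraries kept strand, so reads of the pair over those bases cannot be told apart.

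Set against other Id genes of the same library, Id1 differed between the genotypes in 2 of 3 ratios. All 3 carry the Id1 levels, whose difference was known when the genes were chosen. They describe that difference again and are no separate support for it. The Id1 to Id4 ratio was 1.12, 1.05 and 1.10 in Gde2KO libraries, against 0.862, 0.801 and 0.717 in WT libraries. The Id1 to Id2 ratio was 0.191, 0.210 and 0.294 in Gde2KO libraries, against 0.152, 0.139 and 0.117 in WT libraries. Neither ratio overlapped between the groups, whereas the Id1 to Id3 ratio did. The summed level of the 4 genes, at 121 to 140 FPKM in Gde2KO libraries and 125 to 137 FPKM in WT libraries, overlapped.

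Bmp4 (chr14:46383520-46390669, minus strand), the only ligand among the 10, had the lowest level. It measured 2.74, 3.65 and 2.18 FPKM in Gde2KO libraries, against 2.48, 3.01 and 2.40 FPKM in WT libraries. Gde2KO held both extremes, and the log2 difference was 0.09 (95% interval -0.41 to 0.59). It was positive in 12 of the 13 alternatives that kept this gene and was -0.09 without Gde2KO replicate 2. A stretch of 89 bases matched the opposite-strand gene Gm15217.

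The type I receptor gene Bmpr1a (chr14:34410734-34503341, minus strand) measured 11.9, 12.1 and 13.03 FPKM in Gde2KO libraries, against 12.8, 12.8 and 11.9 FPKM in WT libraries. The type II receptor gene Bmpr2 (chr1:59763400-59879014, plus strand) measured 11.96, 11.6 and 11.01 FPKM in Gde2KO libraries, against 12.3, 12.2 and 11.4 FPKM in WT libraries. Both overlapped between the groups, with log2 differences of -0.02 (95% interval -0.19 to 0.14) and -0.06 (95% interval -0.21 to 0.10). In WT replicates 1 and 2, Bmpr1a was assembled in pieces, among them a 10-exon model of 12.99 and 12.94 FPKM. A separate 3-exon model, over other exons, had 29.8 and 21.7 FPKM. A sum over pieces of different exons counts the gene more than once, so it is not a level of the gene. Adding the FPKM of all pieces gave 12.5, 12.01 and 14.0 FPKM in Gde2KO libraries, against 42.8, 38.3 and 14.1 FPKM in WT libraries, and a log2 difference of -1.09. It gave 0.0067 for Bmpr2. A stretch of 290 bases of Bmpr1a matched the opposite-strand gene Gm17110.

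The signal-transducing Smad1 (chr8:79338395-79399518, minus strand) measured 7.98, 7.43 and 7.34 FPKM in Gde2KO libraries, against 6.65, 8.10 and 6.56 FPKM in WT libraries. Its partner Smad5 (chr13:56703010-56742377, plus strand) measured 5.92, 5.94 and 6.52 FPKM in Gde2KO libraries, against 6.13, 6.19 and 5.50 FPKM in WT libraries. Neither pair of groups was apart. The log2 differences were 0.10 (95% interval -0.15 to 0.35) for Smad1 and 0.04 (95% interval -0.15 to 0.24) for Smad5. Smad1 stayed positive under all 14 alternatives, at 0.045 to 0.20, while Smad5 was -0.0094 without WT replicate 3 and -0.0010 without Gde2KO replicate 3.

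**Figure D3:**
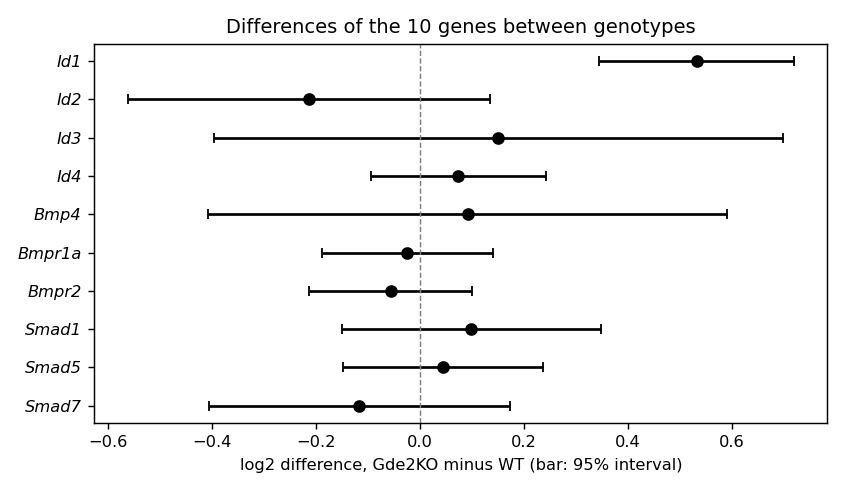
The log2 difference in level, Gde2KO minus WT, for each of the 10 genes, with bars for the 95% interval of the fit across all genes. The difference is 0.53 for Id1 (0.34 to 0.72), and those of the other 9 genes lie between -0.21 and 0.15.

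Smad5 was assembled with alternative first exons. The exon ending at position 56703131 on chromosome 13 carried 49.0%, 78.4% and 70.5% of the Smad5 FPKM in Gde2KO libraries, against 52.7%, 68.4% and 41.8% in WT libraries. The exon ending at 56703576 carried 38.8%, 21.6% and 29.5% in Gde2KO libraries, against 47.3%, 31.6% and 58.2% in WT libraries. Both shares overlapped between the groups. A first exon ending at 56703822 was assembled only in Gde2KO replicate 1, with 12.2%.

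**Figure D4:**
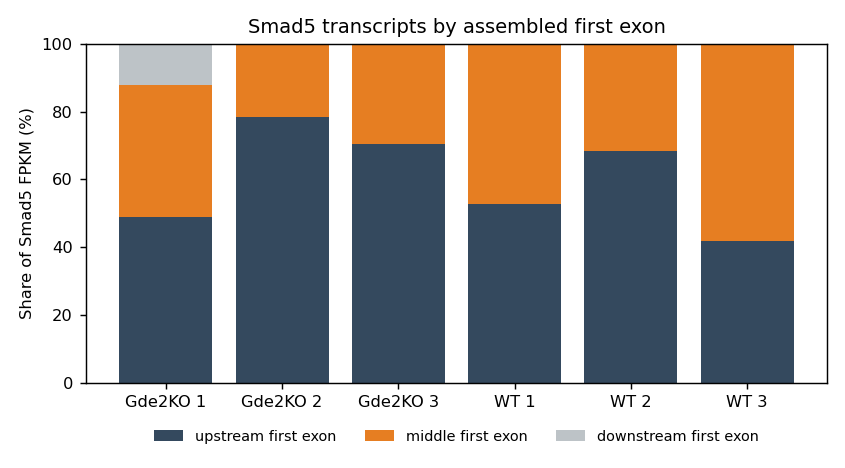
Share of the Smad5 FPKM (%) in each library by assembled first exon, Gde2KO libraries left of WT libraries. The middle exon ranges from 21.6% to 38.8% in Gde2KO and from 31.6% to 58.2% in WT, so the groups overlap.

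The inhibitory Smad7 (chr18:75367529-75395935, plus strand), itself a target of the pathway, measured 8.45, 9.08 and 7.55 FPKM in Gde2KO libraries, against 8.15, 10.3 and 8.77 FPKM in WT libraries. The groups overlapped, with a log2 difference of -0.12 (95% interval -0.41 to 0.17). It was -0.020 without WT replicate 2, and adding the FPKM of all pieces turned it to 0.017. The Smad7 to Smad1 ratio was 1.06, 1.22 and 1.03 in Gde2KO libraries, against 1.23, 1.28 and 1.34 in WT libraries, and there the groups were just apart. That ratio was 1 of 7 computed among the 10 genes, 3 of which did not overlap. The others apart were Id1 to Id2 and Id1 to Id4, which carry the Id1 difference. The share over all gene pairs was not computed, so nothing is read from this count.

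Ordered by mean level, Id2 and Id3 came before the other genes in both genotypes, and Smad1, Smad5 and Bmp4 came last. Id1 was in place 3 in each Gde2KO library and in place 6 in each WT library. In Gde2KO its range overlapped with that of Id4, the next gene. In WT it overlapped with that of Smad7 and lay below Bmpr2. The ranges of Bmpr1a and Bmpr2 overlapped in both genotypes.

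None of the 10 genes passed the limma test at an adjusted p under 0.05, and 1 did at an unadjusted p under 0.05. Across all 12894 genes tested, 0.116% passed and 3.91% had an unadjusted p under 0.05. Groups that did not overlap, with Gde2KO higher, occurred in 1 of the 10 genes (Id1) and in 5.06% of all genes. With Gde2KO lower they occurred in 0 of the 10 and in 5.79% of all genes. Since the choice of genes used this contrast, nothing is read from these counts. Of the 10, 6 had a positive and 4 a negative log2 difference, with a median of 0.06, against a median of 0.00 over all genes.

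Genes around the pathway were covered by 6 lists of 104 names, of which 69 genes were tested. The lists include TGF-beta and activin genes, such as Tgfb1, Inhbb and Tgfbr1, so their counts are not of BMP signalling alone. None of the 69 passed the limma test, where the lowest adjusted p was 0.789, against 0.116% of all genes tested. An unadjusted p under 0.05 was found in 8 of them and in 3.91% of all genes. The log2 difference was positive in 22 and negative in 47, with a median of -0.06. Groups did not overlap in 2 of the 69 with Gde2KO higher and in 8 with Gde2KO lower, against 5.06% and 5.79% of all genes. The lists were chosen with earlier results of these data known, so nothing is read from these counts. Another 34 annotated genes had too low a level, 16 of them listed at 0 in all libraries. The inhibitory Smad6 was among the untested, at 0.509, 0.732 and 0.806 FPKM in Gde2KO libraries and 1.19, 0.813 and 1.002 FPKM in WT libraries, and its groups did not overlap.

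Other ligands, TGF-beta and activin genes among them, were negative in 9 of 11 genes (median -0.09). Bmp7 was at -0.29 and Tgfb1 at -0.25, while Gdf10 was at 0.04 and Inhbb at 0.00. Receptors and co-receptors were negative in 9 of 13 (median -0.06). Among them the endothelial co-receptor gene Eng measured 9.01, 8.66 and 6.80 FPKM in Gde2KO libraries, against 9.81, 10.1 and 10.8 FPKM in WT libraries. The endothelial type I receptor gene Acvrl1 measured 3.72, 3.91 and 4.27 FPKM in Gde2KO libraries, against 4.68, 4.44 and 4.61 FPKM in WT libraries. Neither overlapped between the groups, and neither passed (limma adjusted p = 0.882 for both), as Tgfbr1 at 0.18 and Rgmb at 0.08 did not. Antagonists and modulators were split 6 to 6 (median -0.01). The protease gene Htra1 measured 129, 115 and 78.8 FPKM in Gde2KO libraries, against 69.3, 80.8 and 53.9 FPKM in WT libraries, with overlap and a limma adjusted p of 0.882. Its log2 difference was 0.65, but 0.085 when pieces were added and -0.10 as fragments per gene. Fstl1 was at 0.12 and Nbl1 at -0.16.

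**Figure D5:**
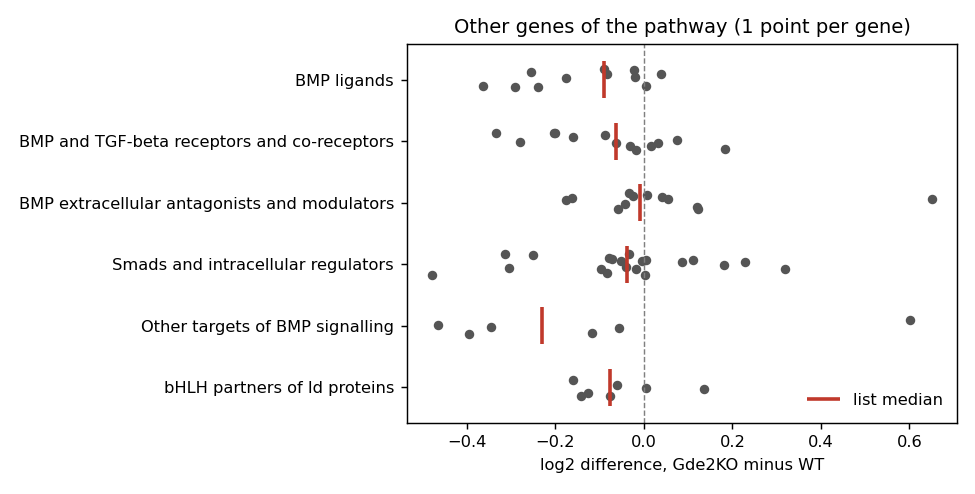
The log2 difference in level, Gde2KO minus WT, of each tested gene in the 6 lists of other pathway genes, a point per gene, with a red line at the median of the list. No gene passed the limma test, and the medians lie between -0.23 and -0.01.

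Smads and intracellular regulators were negative in 13 of 20 genes (median -0.04). The decoy receptor gene Bambi was at -0.31 and the corepressor gene Skil at -0.48, while the SMAD-binding Lemd3 was at 0.23 and Zfyve9 at 0.18. The groups of Bambi, Skil and Lemd3 did not overlap. The Skil value rests on Gde2KO replicate 3, at 1.81 FPKM with 35.7% of the counted bases assembled, and without it was -0.16. Adding pieces turned Bambi to 0.022, Skil to 0.37 and Zfyve9 to -0.13. Other BMP targets were negative in 5 of 6 genes (median -0.23), with Sox9 at -0.47 and Msx1 at -0.40. The exception was Hes1, a repressor best known as a Notch target. The negative genes of this list are not targets of BMP alone either, and Sox9 is also among the astrocyte markers. Hes1 measured 3.39, 3.67 and 4.09 FPKM in Gde2KO libraries, against 2.73, 2.13 and 2.39 FPKM in WT libraries. Its log2 difference was 0.60, with a limma adjusted p of 0.789. Of the bHLH partners, 5 of 7 were negative (median -0.08), with the E-protein genes Tcf3 at -0.14 and Tcf12 at -0.13, Hes6 at 0.14 and Bhlhe22 at 0.01, and adding pieces turned Tcf3 to 0.24.

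Among 8197 other genes with a mean of at least 5 FPKM, those most like Id1 over the 6 libraries were Ssr3 (Pearson r = 0.99), Actr8 (0.98), Arf6 (0.98), Olfml1 (0.98) and Ndfip2 (0.98). In all 46 genes had an r over 0.9. The 6 points share the split into genotypes, so this ranks genes by how their levels follow it. Olfml1 measured 23.6, 26.0 and 23.7 FPKM in Gde2KO libraries, against 10.3, 10.9 and 7.09 FPKM in WT libraries, the widest split of the 5.

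Id1 is known from endothelial cells as well as astrocytes, so markers of both were read in the same libraries. Of 18 endothelial markers, all were tested, 4 were higher and 14 lower in Gde2KO, none passed, and the median log2 difference was -0.10. Their summed level was 230 to 251 FPKM in Gde2KO libraries and 240 to 242 FPKM in WT libraries. The 3 markers of highest level, Itm2a, Ly6c1 and Ly6a, were at -0.09, 0.38 and -0.05, and Ly6c1 has near-identical relatives whose reads may be shared. Ly6c1 measured 27.2 FPKM in WT replicate 1, where 42.8% of its counted bases were assembled, against 51.1 and 48.5 FPKM in the other WT libraries. Over all genes tested, the groups did not overlap with Gde2KO higher in 5.06% and with Gde2KO lower in 5.79%. Among the 18 endothelial markers this held for 3 higher (Ly6c1, Sox17 and Sox18) and 3 lower (Kdr, Cdh5 and Emcn). Of these, the widest log2 difference in each direction, picked out after the values were seen, was that of Sox18 and Kdr. Sox18 measured 6.81, 6.01 and 6.02 FPKM in Gde2KO libraries, against 4.44, 4.30 and 4.29 FPKM in WT libraries (limma adjusted p = 0.243). Kdr measured 3.18, 2.90 and 2.37 FPKM in Gde2KO libraries, against 5.27, 3.74 and 3.95 FPKM in WT libraries (limma adjusted p = 0.882). Of 14 astrocyte markers, 9 were higher and 5 lower (median 0.06), and their summed level was 3188 to 3920 FPKM in Gde2KO libraries and 3476 to 3820 FPKM in WT libraries. All 9 tested markers of meningeal fibroblasts were lower (median -0.38), with a summed level of 75.0 to 124 FPKM in Gde2KO libraries and 117 to 146 FPKM in WT libraries. The low end of that sum was Gde2KO replicate 1 alone, and the other Gde2KO libraries had 121 and 124 FPKM. Marker by marker, the groups did not overlap in 3 of the 9, with Gde2KO lower, against 5.79% of all genes. None of the 9 passed. The part of these cells in the Id1 difference was not tested.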

How the data were processed

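The 6 libraries (3 Gde2KO, 3 WT) were made from poly-A RNA and grouped by their titles. Per the submitters' processing notes, the tools were FastQC (version not given in the sources used here), TopHat2 2.1.1, Cufflinks 2.2.1 and Cuffdiff 2.2.1 on mm10. Each deposited file holds the transcripts assembled in a library with the FPKM that the authors' processing gave, as an attribute of each line. Counts were not used, so no counting interval is given. The labels name 1 flow cell lane for every library, so lanes cannot be compared. Batches of other kinds, such as dissection or library preparation, were not tested.

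Transcripts of at least 200 bases were matched to GENCODE vM21 by exon overlap on the same strand. Those without a strand, 13.1% to 14.1% of each library, counted only where no gene lay opposite. The level of a gene is the FPKM summed at each exonic base assembled in at least 3 libraries, averaged over those bases, then scaled by median-of-ratios factors (0.989 to 1.04). Tests used limma (3.58.1, R 4.3.3) for the 12894 genes that had 200 or more such bases and averaged 1 FPKM or more. They were run on log2(FPKM + 0.1), two-sided, with intensity trend, robust moderation and Benjamini-Hochberg adjustment at 0.05. The pseudocount understates changes of low genes. The script was tested on simulated data. An exact permutation test of 3 against 3 cannot give p under 0.1 and was not used.

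The 10 genes and the lists were chosen with earlier results of these data known. Named pathway genes are those passing, plus up to 2 of smallest p in each direction per list. A gene that this rule names is not reported here. The 14 alternatives changed pseudocount, filter, level definition, scaling, replicate block or left out a library.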

Additional observations from a re-analysis of the deposited data

How the results depend on the processing

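The count of genes passing was 15. It was 1 among genes averaging 5 FPKM or more and 2 with a replicate block, and 10 to 26 when each library was left out in turn. It was highest without WT replicate 2, and 24 without Gde2KO replicate 2 and 25 without Gde2KO replicate 3. The cause was not tested. The counts of 0 among the 10 genes and among the other pathway genes stayed 0 under all 14 alternatives. Same-numbered samples of the genotypes correlated at 0.011, 0.036 and -0.067 (deviations from group means). These values show no sign of pairing by number, but they cannot exclude it. Id1 lay between 0.48 and 0.59 under the 14 alternatives, among which leaving out a library could not turn its sign. Adding the FPKM of all assembled pieces gave -1.09 for Bmpr1a, where pieces over different exons in WT replicates 1 and 2 were counted together. It turned Bmpr2 to 0.0067 and Smad7 to 0.017. The files give no counts, so what depth limits could not be read for single genes.

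Of 311 log2 differences of named pathway genes under the alternatives, 294 kept their sign and side of the threshold. Adding pieces turned Inhbb to -0.21, Zfyve9 to -0.13, Bambi to 0.022, Skil to 0.37 and Tcf3 to 0.24. Fragments per gene turned Htra1 to -0.10 and Bhlhe22 to -0.032, and no scaling turned Inhbb to -0.029 and Bhlhe22 to -0.028. With libraries left out in turn, Gdf10 ranged from -0.066 to 0.18, Bhlhe22 from -0.058 to 0.047 and Inhbb from -0.013 to 0.017. None of these genes passed the test in any setting.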
